A study of Rattus norvegicus with 8 samples.

Results

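Of the 36174 gene names on the array, 10 genes of the route from Toll-like receptors to NF-kB are described here: the receptors Tlr2 and Tlr4, the adaptor Myd88, the kinases Irak1 and Irak2, the ubiquitin ligase Traf6, the NF-kB subunits Nfkb1 and Rela, and the inhibitors Nfkbia and Tnfaip3. They were chosen by name, and all 10 were on the array, with 12 of its 45598 probes. Irak1 and Nfkb1 had 2 probes each. Each gene had 1 probe or more among the 23111 tested, which were brighter than background in 3 or more of the 7 arrays whose background marks are complete. Irak1 and Traf6 are reported targets of miR-146a, the microRNA named in the title of the study.

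RNA was taken by laser microdissection from livers of F344 rats that had received retrorsine, which blocks division of mature hepatocytes (MHs), and partial hepatectomy. In such livers clusters of small hepatocyte-like progenitor cells (SHPCs) appear. The 8 samples were 2 of MHs, 3 of SHPC clusters from control livers and 3 of SHPC clusters from rats given bone marrow-derived mesenchymal cells (BM-MCs). The BM-MCs were given through the spleen. The titles of the MH samples name no liver of origin, and the paper's discussion of its array clustering refers to MHs of transplanted livers. Every sample was labelled from 100 ng of RNA and hybridised to a 1-colour array. All groups, controls included, thus share retrorsine and hepatectomy. The methods give the recipients as female and DPPIV-negative and the donor cells as cultured from a DPPIV-positive male, whereas the labels give the DPPIV-positive strain for every sample. The methods give a fixed day after transplantation for the harvest of recipient livers, in the account of the immunohistochemistry, whereas the labels give no age or time. Animals are not matched to samples in either source. The p-values therefore cover only sample-to-sample spread, which may be technical.

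Toll-like receptors recognise microbial products. Myd88 joins the activated receptor to Irak kinases, which recruit Traf6, and the resulting ubiquitin chains activate the IkB kinase, so that Nfkbia (IkB-alpha) is degraded and the p50 (Nfkb1) and p65 (Rela) subunits enter the nucleus. Nfkbia and Tnfaip3 (A20) are themselves induced by NF-kB and shut the route off. In the liver, Kupffer cells, the resident macrophages, are known for strong Toll receptor signalling. In tissue captured as clusters, more cells of one type and more RNA per cell cannot be told apart.

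The microRNA in the study's title and its close relative are shown first, because the seed (bases 2 to 8, in capitals) is the stretch by which a microRNA pairs with a target. The sequences are from RefSeq on build GRCr8, where miR-146a-5p lies at chr10:28350053-28350074 on the minus strand and miR-146b-5p at chr1:255144874-255144897 on the plus strand.
rno-miR-146a-5p: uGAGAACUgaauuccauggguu
rno-miR-146b-5p: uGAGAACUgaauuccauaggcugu
Both carried the seed GAGAACU, which no other of the 724 mature rat microRNAs in the table had. A transcript site opposite this seed reads AGUUCUC.

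The 60-base probes that measured Irak1 and Traf6 are shown because the values of these reported targets rest on them. On build rn4, the build of the array's annotation, the Irak1 probe lies at chrX:159961767-159961826 on the minus strand and the Traf6 probe at chr3:86846359-86846418 on the plus strand.
Irak1 probe: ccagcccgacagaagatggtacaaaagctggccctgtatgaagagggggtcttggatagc
Traf6 probe: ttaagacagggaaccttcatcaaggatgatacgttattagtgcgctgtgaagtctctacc
None of the 12 member probes contained AGTTCTC, the DNA form of the site, so a probe reports the level of its transcript and not whether the transcript holds a site. The second Irak1 probe lies at chrX:159959301-159959360 on the minus strand of rn4, downstream of the first in the direction of transcription, and holds the polyadenylation signal AATAAA.

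Spots well above background made up 57.0% to 61.5% of an array, with none saturated. The scale used throughout is log2 signal relative to the 75th percentile of the array, on which 1 unit is a 2-fold change. The 10 hepatocyte markers (among them Alb, Ttr and Cps1) had mean levels of 5.10 and 5.17 in the MHs. They ran from 5.29 to 5.62 in control SHPCs and from 5.14 to 5.54 with BM-MCs. Every control SHPC sample thus lay above both MHs. Both MH samples shared with controls 1 and 2 the first set of 4 arrays on the slide, and control SHPC replicate 3 shared the second set with the 3 BM-MC samples. Levels are compared between samples only, not between probes.

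The first comparison set both SHPC groups against each other to ask whether transplantation was accompanied by a change along this route. None of the 10 members passed limma's adjusted threshold of 0.05, where 0.0216% of all tested probes did. Tlr4 and Myd88 were higher in every BM-MC sample than in every control, Traf6 was lower in every one, and the other 7 genes overlapped between both groups. These 3 of 10 genes without overlap stand beside 24.7% of all tested probes, and the same 3 genes had an unadjusted p from limma under 0.05, beside 16.6% of all. The methods' t-test found 2 of 10 (Traf6 and Myd88) without adjustment, where it found 14.9% of all tested probes, and 0 of 10 after Benjamini-Hochberg adjustment. The median log2 fold change of the 10 genes was 0.043, against 0.018 over all tested probes. This median ran from 0.00026 without control SHPC replicate 2 to 0.11 without control SHPC replicate 3.

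**Figure D1:**
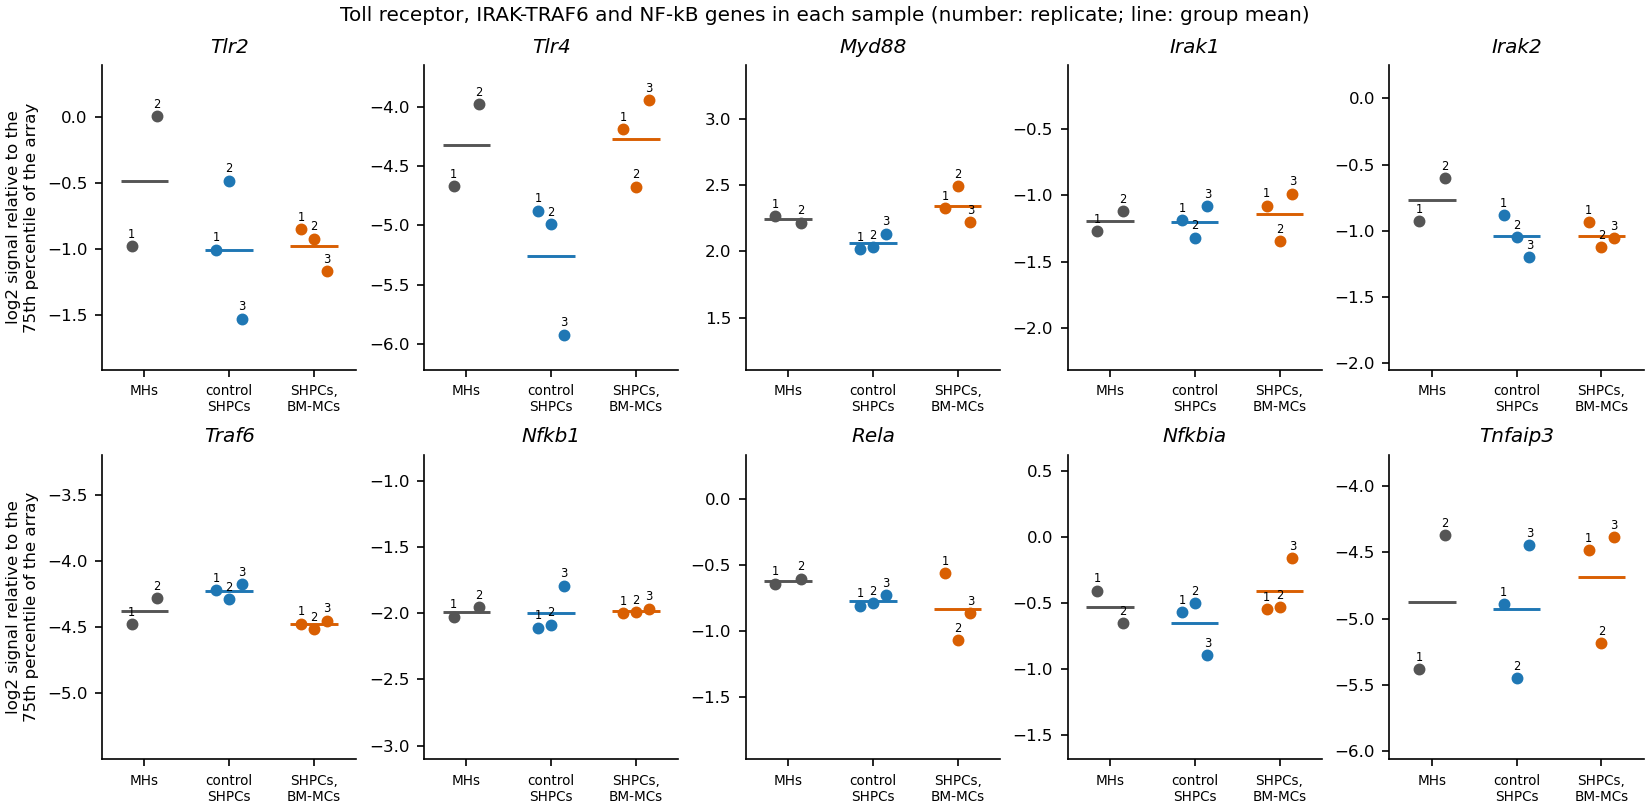
Level of each of the 10 genes (log2 signal relative to the 75th percentile of the array, vertical axis) in 2 MH samples, 3 control SHPC samples and 3 SHPC samples with BM-MCs. Numbered points are replicates and lines are group means. Traf6 sits lower and Myd88 and Tlr4 higher in all 3 BM-MC samples than in any control, with control SHPC replicate 3 at -5.92 for Tlr4.

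Tlr4, the receptor for bacterial lipopolysaccharide, was at -4.88, -4.99 and -5.92 in the control SHPCs and at -4.19, -4.67 and -3.95 in the SHPCs with BM-MCs. The MHs were at -4.67 and -3.98. Every BM-MC sample lay above every control, while the BM-MC samples and the MHs overlapped. Control SHPC replicate 3, the lowest, was not well above background. The difference in log2 came to 0.99 (standard error 0.33, 95% interval 0.20 to 1.78, limma, adjusted p = 0.24), a 1.99-fold difference. An exact permutation test over the 6 samples gave a 2-sided p = 0.1, and no split of 3 against 3 can give less. The log2 difference was 0.66 without control SHPC replicate 3, and 0.89 with a floor for dim spots. Against this control alone, the only one in the array set of the BM-MC samples, it was 1.65, a value that rests on 1 sample whose spot was not well above background. With normexp background correction and quantile normalization on the 7 complete arrays, which leaves out control SHPC replicate 2, it was 0.37.

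Tlr2, the receptor for bacterial lipopeptides, was at -1.002, -0.48 and -1.52 in controls and at -0.85, -0.92 and -1.16 with BM-MCs. The BM-MC samples lay inside the range of the controls. Its log2 difference was 0.025 (95% interval -0.62 to 0.67, limma, adjusted p = 0.97), and it ran from -0.24 when control SHPC replicate 3 was left out to 0.29 when control SHPC replicate 2 was. Against control SHPC replicate 3 alone, the control in the array set of the BM-MC samples, it was 0.55. In the MHs it was at -0.98 in replicate 1 and near 0 in replicate 2, the highest of the 8 samples.

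Myd88 was at 2.02, 2.03 and 2.13 in controls and at 2.33, 2.49 and 2.22 with BM-MCs. The MHs, at 2.27 and 2.22, overlapped the BM-MC samples and lay above every control. Its log2 difference was 0.29 (standard error 0.12, 95% interval 0.0017 to 0.57, limma, adjusted p = 0.30), or 1.22-fold. With the median of the array as the scale it was 0.094. That scaling lowered every value of this comparison by the same amount and moved the median of all tested probes from 0.018 to -0.17. It could therefore not change where Myd88 lay relative to all probes.

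Irak1, the kinase that Myd88 recruits, was at -1.19, -1.32 and -1.08 in controls and at -1.08, -1.35 and -0.99 with BM-MCs. The groups overlapped in full, with both the highest and the lowest sample among the BM-MC samples. The difference in log2 came to 0.060 (standard error 0.14, 95% interval -0.27 to 0.40, limma, adjusted p = 0.85). The second Irak1 probe was at -1.86, -1.55 and -1.67 in controls and at -1.72, -1.82 and -1.68 with BM-MCs, a log2 difference of -0.047 (95% interval -0.35 to 0.25, limma, adjusted p = 0.87). The probes thus differed in sign, and each interval included 0. Irak2, a related kinase that sustains the signal, was at -0.88, -1.05 and -1.20 in controls and at -0.93, -1.13 and -1.05 with BM-MCs. Its log2 difference was 0.0050 (95% interval -0.30 to 0.31).

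Traf6, the ubiquitin ligase downstream of the Irak kinases, was at -4.22, -4.29 and -4.18 in controls and at -4.47, -4.51 and -4.45 with BM-MCs. Each group was tight, with an SD of 0.056 and 0.032 (n = 3 in each), and the groups did not overlap. Of the MHs, replicate 1 (-4.48) lay among the BM-MC samples and replicate 2 (-4.28) among the controls. The difference in log2 came to -0.25 (standard error 0.099, 95% interval -0.49 to -0.012, limma, adjusted p = 0.29), or 0.840-fold, and the exact permutation test again gave p = 0.1. It stayed between -0.28 and -0.23 with each of the 6 samples left out. Over the other alternatives it lay between -0.44 and -0.16, and the adjusted p from limma or the methods' t-test lay between 0.15 and 0.83 over all of them. The signal of Traf6 was low on every array, between 62.4 and 89.1 intensity units, with every spot well above background on the 7 arrays with complete marks.

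**Figure D2:**
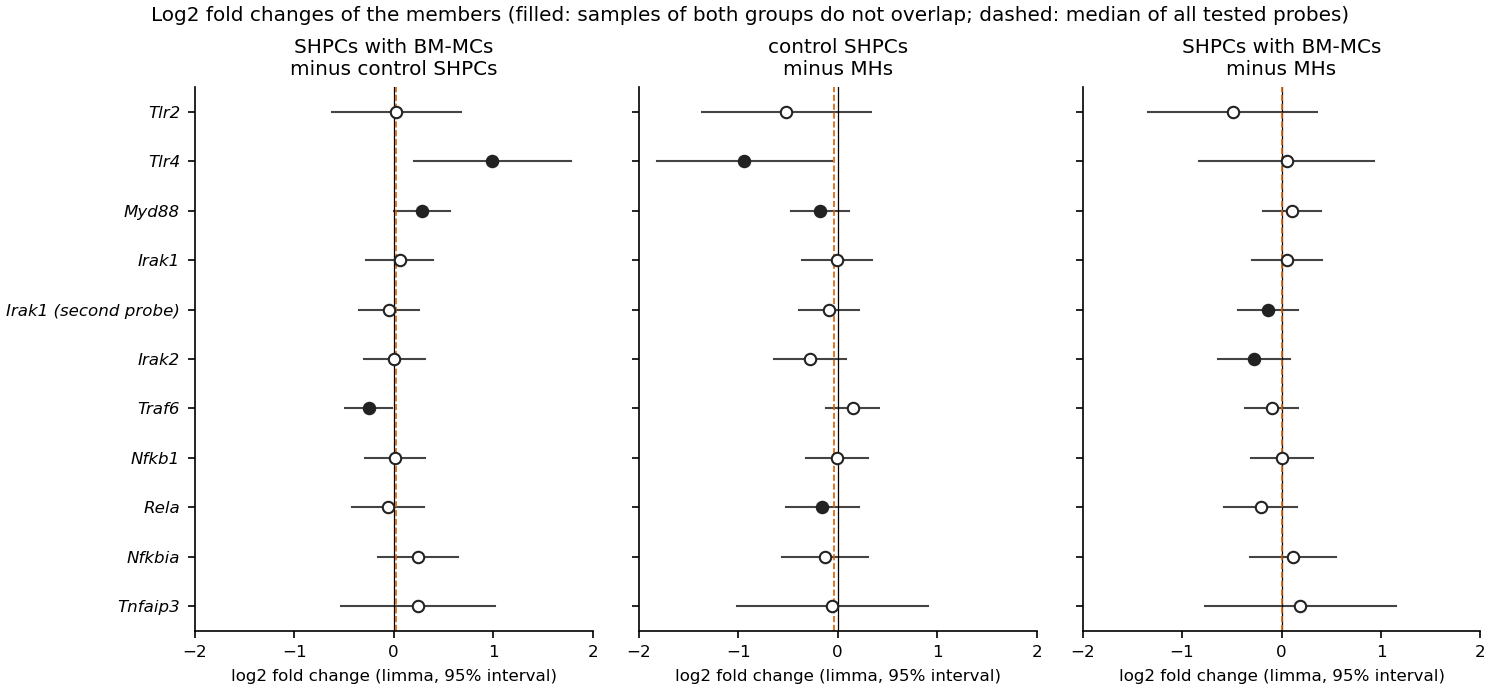
Log2 fold changes (horizontal axis) of the 10 genes and the second Irak1 probe in the 3 comparisons, with 95% intervals from limma. Filled points mark genes whose groups do not overlap and the dashed line is the median of all 23111 tested probes. In the comparison of both SHPC groups the intervals of Tlr4, Myd88 and Traf6 exclude 0 before adjustment, and none passed after it.

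For each NF-kB subunit and inhibitor both SHPC groups overlapped. Nfkb1, the p105 precursor of p50, was at -2.11, -2.09 and -1.79 in controls and at -2.0001, -1.99 and -1.97 with BM-MCs, where the SD was 0.017 (n = 3). Its log2 difference was 0.0097 (95% interval -0.29 to 0.31). Rela was at -0.81, -0.79 and -0.73 in controls and at -0.56, -1.07 and -0.87 with BM-MCs, a log2 difference of -0.057 (95% interval -0.42 to 0.31). For Rela the spread was in the BM-MC samples (SD 0.25, n = 3) and not in the controls (SD 0.040, n = 3). The second Nfkb1 probe, annotated over a span of 6247 bases of rn4, was not well above background on any of the 7 arrays and was not tested.

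Nfkbia was at -0.57, -0.50 and -0.89 in controls and at -0.55, -0.53 and -0.16 with BM-MCs, a log2 difference of 0.24 (95% interval -0.16 to 0.65, limma, adjusted p = 0.49). BM-MC SHPC replicate 3 was the highest of the 8 samples and control SHPC replicate 3 the lowest, and the other samples of both groups overlapped. Without BM-MC SHPC replicate 3 it was 0.12. Tnfaip3 was at -4.89, -5.45 and -4.44 in controls and at -4.48, -5.19 and -4.39 with BM-MCs, a log2 difference of 0.24 (95% interval -0.53 to 1.02, limma, adjusted p = 0.72). The samples of each SHPC group spread widely (SD 0.50 and 0.44, n = 3 in each), and the MHs were at -5.38 and -4.37.

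The remaining genes of the route came from 5 lists, of which 81 genes were tested, and none passed the adjusted threshold. Of the 81, 15 (18.5%) did not overlap between both SHPC groups, 11 higher and 4 lower with BM-MCs, which is below the 24.7% of all tested probes. Limma's unadjusted p was under 0.05 for 9 higher and 1 lower, 10 of 81 beside 16.6% of all. The methods' t-test found 8 without adjustment (6 higher and 2 lower), beside 14.9% of all, and 0 after it. The medians of the lists lay between -0.0097 for the 15 receptors and co-receptors and 0.26 for the 19 NF-kB target genes. Among the target genes 13 of 19 were above 0, where 52.6% of all tested probes were.

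**Figure D3:**
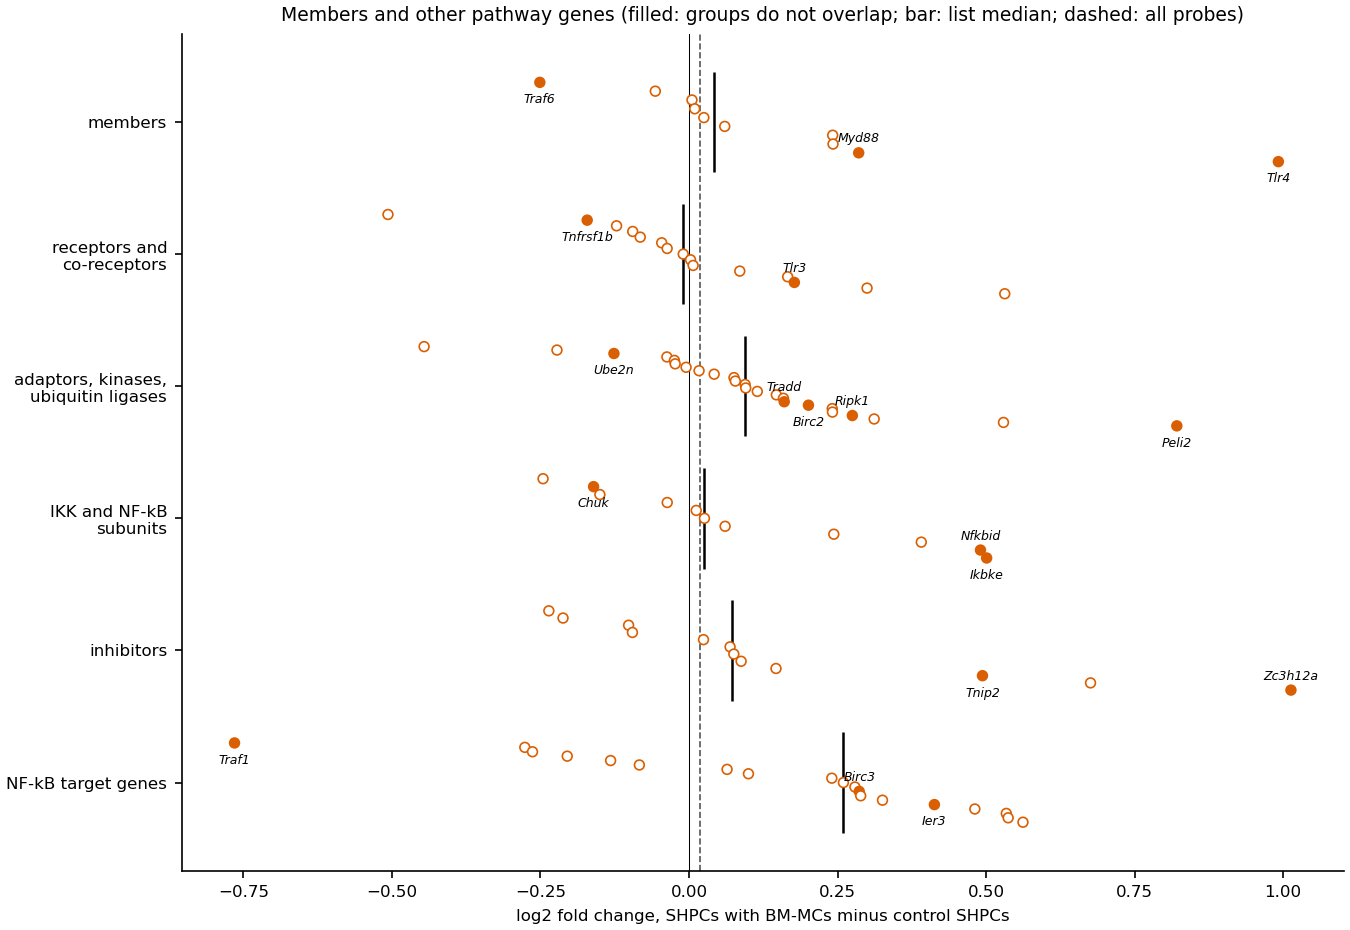
Log2 fold changes of BM-MC over control SHPCs (horizontal axis) of the 10 members and of the tested genes of 5 lists. Each point is a gene, filled and named where the groups do not overlap, bars are list medians and the dashed line is the median of all probes. The widest values are Zc3h12a at 1.01 and Traf1 at -0.77, and none passed the adjusted threshold. Zc3h12a was well above background on 4 of 7 arrays only and dimmer in the controls than with BM-MCs.

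Among receptors in the comparison of both SHPC groups, Tlr3, which senses double-stranded RNA, was at 0.18 (limma, adjusted p = 0.40) and Tnfrsf1b, the second TNF receptor, at -0.17 (adjusted p = 0.44). The Tlr4 co-receptors Cd14, Ly96 and Lbp had log2 fold changes of -0.51, -0.12 and 0.30 and overlapped between both SHPC groups; they were chosen here after their values were seen. Tlr5, Tlr7, Tlr8, Tlr9, Tlr10 and Tlr11 were too dim to be tested. Among adaptors, kinases and ligases, Peli2, a ubiquitin ligase that acts on Irak1, was at -4.63, -4.85 and -4.48 in controls and -4.29, -3.78 and -3.44 with BM-MCs, a log2 difference of 0.82 (limma, adjusted p = 0.21). Ripk1 was at 0.27 and Birc2 at 0.20 (limma, adjusted p = 0.28 and 0.40).

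Among the kinases and NF-kB proteins, Ikbke, an IkB kinase relative, had the lowest p of the 81 genes. It was at -0.75, -0.57 and -0.65 in controls and -0.26, -0.034 and -0.17 with BM-MCs. Its log2 difference was 0.50 (standard error 0.12, limma, adjusted p = 0.16). Nfkbid, a nuclear IkB protein, was at 0.49 (limma, adjusted p = 0.24) and Chuk, the IKK-alpha kinase, at -0.16 (adjusted p = 0.47). Among inhibitors, Zc3h12a (regnase-1), which degrades inflammatory transcripts, was at 1.01 (limma, adjusted p = 0.17) but well above background on 4 of 7 arrays only, and normexp with quantile normalization put it at 0.19. It was at -6.29, -6.66 and -5.93 in the controls and at -5.29, -4.95 and -5.61 with BM-MCs, so the size of its difference rests on dim controls. Tnip2, a partner of A20, was at 0.49 (limma, adjusted p = 0.27). Among target genes, Traf1 was at -0.77, Ier3 at 0.41 and Birc3 at 0.29 (limma, adjusted p = 0.29, 0.30 and 0.35), while Il6, Ccl20, Sele, Nos2, Ptgs2 and Csf2 were too dim to be tested. Without BM-MC SHPC replicate 2, Traf1 was at -0.44 and Ier3 at 0.24, and without BM-MC SHPC replicate 3 Birc3 was at 0.19. Normexp and quantile normalization put Peli2 at 0.36 and Traf1 at -0.42, and median scaling lowered every value of this comparison by 0.19.

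All 16 genes of a list of reported miR-146a targets were tested, and none passed the adjusted threshold. Whether the rat transcripts of these genes hold a site for miR-146a was not examined. The median log2 fold change was 0.059, against 0.018 over all probes, and 10 of 16 were above 0. The SHPC groups did not overlap for 4 of 16 (25.0%), beside 24.7% of all tested probes, and these 4 were equally divided in direction. Limma's unadjusted p was under 0.05 for the same 4 of 16 genes, beside 16.6% of all tested probes. Traf6 is given above. Smad4, the shared mediator of TGF-beta signals, was at -4.46, -4.38 and -4.12 in controls and -4.91, -4.97 and -4.61 with BM-MCs, a log2 difference of -0.51 (limma, adjusted p = 0.22). Notch1 was at -1.998, -2.10 and -2.13 in controls and -1.37, -1.52 and -1.86 with BM-MCs, a log2 difference of 0.49 (limma, adjusted p = 0.23), and Egfr was at 0.51 (limma, adjusted p = 0.27). Against control SHPC replicate 3 alone, the control in the array set of the BM-MC samples, Egfr was at 0.22. With normexp and quantile normalization Smad4 was at -0.30. The level of the microRNA itself was not measured on these arrays.

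**Figure D4:**
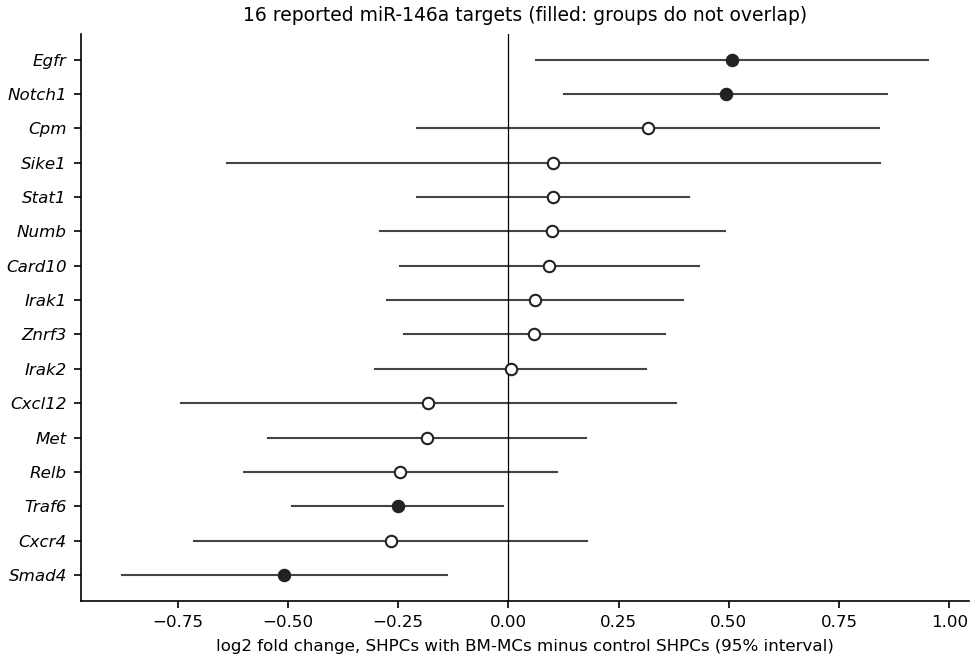
Log2 fold changes of BM-MC over control SHPCs (horizontal axis) of 16 reported miR-146a targets, with 95% intervals from limma. Filled points mark genes whose groups do not overlap: Smad4 and Traf6 lie below 0, Notch1 and Egfr above it, with Irak2 at 0.0050 and Irak1 at 0.060.

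Control SHPCs were compared with MHs, in a fit of all 8 samples that shares its controls with the comparison above. None of the 10 members passed limma's adjusted threshold, where 1.13% of all tested probes did (0.917% higher in SHPCs), and 1 of 10 (Tlr4) had an unadjusted p under 0.05, beside 19.2% of all. Tlr4, Myd88 and Rela were lower in every control SHPC sample than in both MH samples, and 3 of 10 without overlap stand beside 41.4% of all tested probes. Of the 10 genes, 9 had a fold change below 0, where 46.2% of all tested probes were above 0, with a median of -0.14 against -0.032. The median of the members ran from -0.19 without control SHPC replicate 3 to -0.070 without MH replicate 2. The methods' t-test found Myd88 and Rela without adjustment (2 of 10, beside 17.5% of all tested probes) and 0 of 10 after it.

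For Tlr4 the difference in log2 came to -0.94 (standard error 0.38, 95% interval -1.82 to -0.061, limma, adjusted p = 0.24), and it was -0.59 without MH replicate 2 and -1.29 without MH replicate 1. Within the first set of arrays, which holds both MHs and controls 1 and 2, it was -0.61, and with normexp and quantile normalization -0.44. Myd88 was at -0.18 and Rela at -0.15 (limma, adjusted p = 0.46 and 0.62). Tlr2 was at -0.52 (95% interval -1.36 to 0.33), and it was -0.026 without MH replicate 2 and -1.007 without MH replicate 1. Irak2 was at -0.28 (limma, adjusted p = 0.36), and it was -0.11 without MH replicate 2 and -0.44 without MH replicate 1. Traf6 was the one member above 0, at 0.15 (95% interval -0.12 to 0.42), with 0.054 and 0.25 without MH replicate 1 or 2. Irak1, Nfkb1, Nfkbia and Tnfaip3 lay between -0.12 and -0.0040, with Nfkbia at -0.00018 and -0.25 without MH replicate 1 or 2.

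Of the 81 other genes of the route, 28 (34.6%) did not overlap between control SHPCs and MHs, 7 higher and 21 lower in SHPCs, where 18.7% of all tested probes were higher and 22.7% lower. None passed the adjusted threshold. Limma's unadjusted p was under 0.05 for 12 of the 81, 2 higher and 10 lower, where 19.2% of all tested probes had such a p. The methods' t-test found 13 without adjustment, beside 17.5% of all, and 0 after it. Sqstm1 (p62), which binds Traf6, was at 4.88 and 4.65 in the MHs and at 4.05, 3.95 and 3.78 in control SHPCs. Its log2 difference was -0.84 (limma, adjusted p = 0.092), and it passed (adjusted p = 0.029) with an intensity trend in limma. Ikbkg, the scaffold of the IkB kinase, was at 0.15 and 0.12 in MHs and at -0.65, -0.52 and -0.81 in control SHPCs, a log2 difference of -0.80 (limma, adjusted p = 0.13). It passed (adjusted p = 0.039) where BM-MC SHPC replicate 3 was left out of the shared fit. Tradd was at -0.40, Peli2 at -0.55, Ikbkb at -0.41 and Nfkbid at -0.094. Nfkbid was at -0.058 without MH replicate 2, and with normexp and quantile normalization Peli2 was at -0.26.

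Unc93b1, which carries Toll receptors to the endosome, was at -0.73 and Tlr13 at -0.78, and Il1rap was at 0.40 (limma, adjusted p = 0.15, 0.19 and 0.23). Tnip2 was at -0.53, Tnfaip8l2 at -0.38 and Il1rn, the IL-1 receptor antagonist, at 0.63. Among target genes, Traf1 was at 0.95 (0.44 with normexp and quantile normalization), Gadd45b at -0.48 and Csf1, the macrophage growth factor, at -0.55. The adjusted p from limma of these 6 genes lay between 0.19 and 0.44. Single samples moved some of these values: Tnfaip8l2 was at -0.17 without control SHPC replicate 3, Il1rn at 0.31 and 0.96 without MH replicate 1 or 2, and Il1rap at 0.26 without MH replicate 2.

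SHPCs with BM-MCs were compared with MHs in the same fit, and again no member passed the adjusted threshold, where 0.338% of all tested probes did (0.32% higher), or an unadjusted p under 0.05, beside 13.3% of all. The methods' t-test also found 0 of 10 with and without adjustment. Irak2 was the one gene without overlap (1 of 10, beside 32.4% of all tested probes), at -0.27 (limma, adjusted p = 0.47), with MH replicate 1 at -0.93 next to BM-MC SHPC replicate 1, also at -0.93. The second Irak1 probe, at -0.13, did not overlap either, whereas the first did, at 0.056. Of the 10 genes, 6 were above 0, beside 50.5% of all, and the median was 0.028, against 0.0030 over all probes. Tlr4 was at 0.052 (95% interval -0.83 to 0.93), Myd88 at 0.11 and Traf6 at -0.10, each with overlapping groups. Single samples moved these values: Traf6 ran from -0.20 to -0.0036 without MH replicate 1 or 2, Irak2 from -0.44 to -0.11 likewise, and Myd88 from 0.031 to 0.17 without BM-MC SHPC replicate 2 or 3. Rela, at -0.21, ran from -0.34 to -0.093 without BM-MC SHPC replicate 1 or 2. No array set holds both MHs and BM-MC samples, so with the set as a block this comparison runs through the controls, and Tlr4 was then at 1.04, Nfkbia at 0.48 and Irak2 at -0.040. The widest value was Tlr2 at -0.49 (95% interval -1.34 to 0.36), which was -0.00098 without MH replicate 2 and -0.98 without MH replicate 1.

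Of the 81 other genes, 20 (24.7%) did not overlap between BM-MC SHPCs and the MHs, below the 32.4% of all tested probes, and none passed. Limma's unadjusted p was under 0.05 for 3 higher and 6 lower, 9 of 81 beside 13.3% of all. The methods' t-test found 5 without adjustment, beside 9.26% of all, and 0 after it. Tnfrsf1b had the lowest p, at 0.31 and 0.37 in MHs and at -0.15, -0.039 and -0.16 with BM-MCs (log2 fold change -0.45, limma, adjusted p = 0.23). Tlr13 was at -0.86, Sqstm1 at -0.60, Unc93b1 at -0.56, Ikbkg at -0.55, Gadd45b at -0.42, Tnfaip8l2 at -0.36, Ikbkb at -0.35, Tradd at -0.24, Sod2 at -0.18 and Cyld at -0.11. Nfkbid was at 0.40 and Birc2 at 0.38, and Ccl2, at 1.36, was well above background on 4 of 7 arrays only and ran from 0.25 (normexp and quantile normalization) to 3.63 (array set as a block) over the alternatives. That block also put Tlr13 at -0.27, Unc93b1 at -0.070, Sqstm1 at -0.38, Ikbkg at -0.33, Gadd45b at -0.13, Ikbkb at -0.14, Tradd at -0.075 and Sod2 at -0.30, and it turned Tnfaip8l2 to 0.29 and Cyld to 0.19. Birc2 was at 0.18 and 0.59 and Gadd45b at -0.57 and -0.27 without MH replicate 1 or 2, and without BM-MC SHPC replicate 3 Ikbkg was at -0.36 and Tnfaip8l2 at -0.18.

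Markers of other cell types are set beside these values because Toll receptors are also expressed outside hepatocytes. All 14 Kupffer cell and macrophage markers were tested, and their mean level was 1.298 and 1.61 in the MHs, 1.10, 1.07 and 0.58 in control SHPCs and 1.24, 1.14 and 0.79 in SHPCs with BM-MCs. The MHs were highest and control SHPC replicate 3 lowest, as it was for Tlr2 and Tlr4. This control was also lowest for Irak2 and Nfkbia and highest for Traf6 and Nfkb1. Tlr4 was highest in BM-MC SHPC replicate 3 (-3.95), whose macrophage marker mean was the lowest of its group. Between control SHPCs and MHs, 8 of 14 were lower without overlap, beside 22.7% of all tested probes, 13 of 14 had a fold change below 0, and the median was -0.57. Between both SHPC groups 10 of 14 were above 0, with a median of 0.12, and 1 of 14 (Cd163, at 0.55) did not overlap, beside 24.7% of all tested probes.

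Of 9 granulocyte markers 3 were tested (S100a8, S100a9 and Retnlg), and their mean level was -3.39 and -1.58 in the MHs, from -2.04 to -1.48 in control SHPCs and from -3.46 to -3.14 with BM-MCs. All 3 were lower with BM-MCs without overlap, beside 11.7% of all tested probes, with a median of -1.46. Mpo, Elane, Ngp, Camp, Csf3r and Cxcr2, which define these cells, were not well above background on enough arrays to be tested. Among the members, Tlr2, Irak2 and Tnfaip3 had their highest value in MH replicate 2, which also held more granulocyte and macrophage marker signal than MH replicate 1. The part of these cells in the values of the members was not tested.

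**Figure D5:**
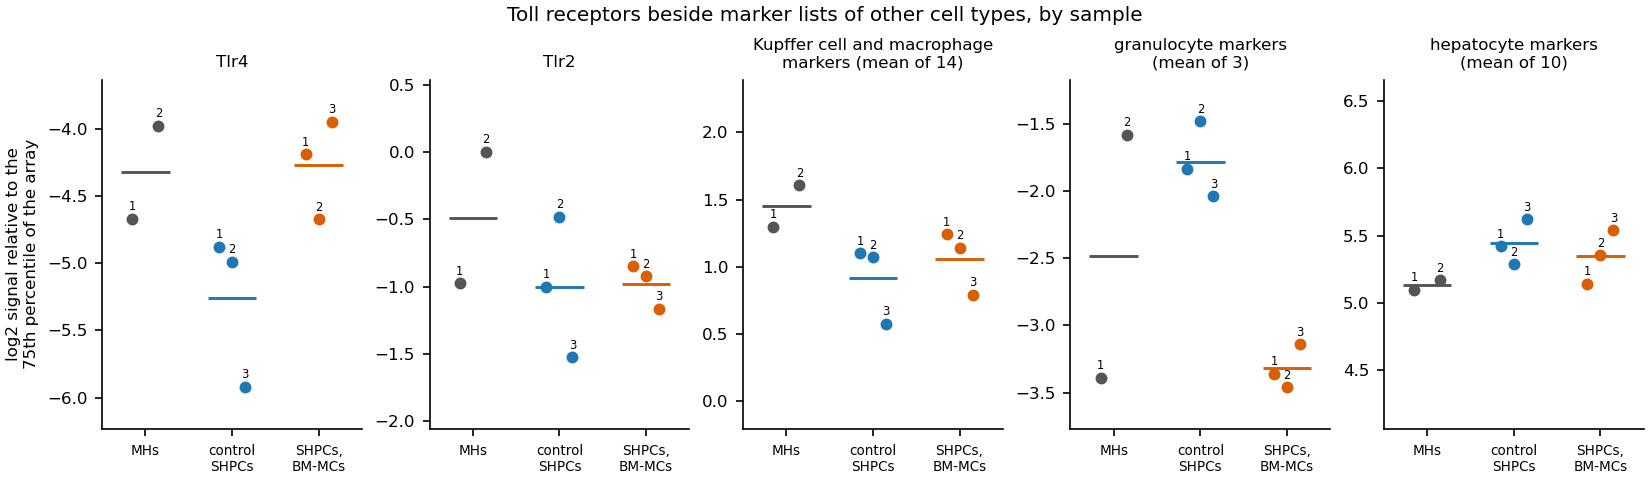
Levels of Tlr4 and Tlr2 and mean levels of 14 Kupffer cell and macrophage markers, 3 granulocyte markers and 10 hepatocyte markers (log2 signal relative to the 75th percentile of the array, vertical axis, spanning the same range in each panel), by group and replicate. Lines are group means. Control SHPC replicate 3 is lowest for Tlr4, Tlr2 and the macrophage markers, and the granulocyte markers are lowest in MH replicate 1 and the 3 BM-MC samples. Tlr4 is highest in BM-MC SHPC replicate 3, where the macrophage markers are the lowest of that group.

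The 8 sinusoidal endothelial markers had mean levels of 0.067 and -0.068 in the MHs, -0.35, -0.31 and -0.12 in control SHPCs and 0.0083, -0.0028 and -0.28 in SHPCs with BM-MCs. Between control SHPCs and MHs 7 of 8 had a fold change below 0, with a median of -0.25, and 4 were lower without overlap, beside 22.7% of all tested probes. Between both SHPC groups 7 of 8 were above 0, with a median of 0.16, and Stab2 (at 0.37) and Kdr (at 0.32) were higher without overlap, 2 of 8 beside 13.1% of all.

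The other marker lists are given by their mean levels. The 6 lymphocyte markers ran from -2.20 to -1.72 over all 8 samples, with overlap between the groups. The 5 cholangiocyte markers were at -5.02 and -4.74 in the MHs, ran from -4.41 to -4.09 in control SHPCs and from -4.74 to -4.01 with BM-MCs, so that every control SHPC sample lay above both MHs. Their median log2 fold change of control SHPCs over MHs was 0.53, and 2 of 5 did not overlap, beside 41.4% of all tested probes. The 10 stellate cell and fibroblast markers were at -1.07 and -0.80 in the MHs, ran from -0.99 to -0.82 in control SHPCs and from -0.98 to -0.47 with BM-MCs. Between BM-MC SHPCs and MHs 6 of 10 (4 higher and 2 lower) did not overlap, beside 32.4% of all tested probes, although the mean levels did. The 5 erythroid markers ran from -3.37 to -2.30 in control SHPCs, from -3.99 to -3.61 with BM-MCs and were at -3.39 and -3.10 in the MHs, so that the BM-MC samples lay below all others. The part of these cells in the values of the members was not tested either.

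Promoters from 250 bases before to 50 bases after the transcription start were found in RefSeq for 8 of the 10 members, on build GRCr8. The kappaB consensus, the 10-base motif bound by NF-kB, was searched on both strands. It was present in 4 of 8 (50%), the promoters of Tlr2, Nfkb1, Nfkbia and Tnfaip3, and absent as such letters from those of Tlr4, Myd88, Irak1 and Rela. The share was 41.2% (7 of 17) for the NF-kB target genes that were found and 8.16% (2240 of 27457) for all genes of the table. Of the 4 genes with the motif none was without overlap between both SHPC groups, beside 24.7% of all tested probes. Their log2 fold changes were 0.025, 0.0097, 0.24 and 0.24. A match describes the sequence and says nothing of binding in these cells.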

How the data were processed

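Arrays of 8 samples of cells captured by laser microdissection were used. The authors deposited scanner output from Agilent's Feature Extraction software, version 10.7 by the submitters' processing notes, and a value table. The deposited intensity is the processed signal, already background-subtracted and not scaled between arrays. The scanner output for replicate 2 of the control SHPCs ends after 20903 of 62976 features. Its signals were read from the value table instead, which matched the files within a relative difference of 1.19e-06, and its partial marks were left out of the filter. Probe annotation is on rn4.

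Signals were put on the log2 scale relative to the array's 75th percentile, outlier spots were dropped and spots of 1 probe averaged. The 23111 probes above background in 3 or more of the 7 complete arrays entered limma 3.58.1 (R 4.3.3). P-values were adjusted over all of them by Benjamini-Hochberg, with a threshold of 0.05. SHPC groups were compared on their 6 samples and MHs in a fit of all 8. The brightest tested probe speaks for a gene. Members and gene lists were chosen with earlier results of these data known. All members were named. From each list were named the genes past the threshold or, as none passed, up to 3 without overlap between groups with the lowest p, and the miR-146a targets whose SHPC groups do not overlap. The fit of both SHPC groups was tested on simulated data (22988 probes), where 86% of 100 probes changed 4-fold and 39% of 100 changed 2-fold were recovered. The simulated noise was independent between probes, without effects shared by a sample or an array set, so these rates may not hold for the real arrays. Alternatives were other scalings, filters, fits and tests, a floor for dim spots, blocks for replicate number and array set, and each sample left out.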

Additional observations from a re-analysis of the deposited data

How the results depend on the processing

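No member passed the adjusted threshold in any comparison under any of the alternatives run with adjustment. The scanner's incomplete marks for control SHPC replicate 2 kept normexp to 7 arrays. Within the SHPC comparison the block for the array set rests on control SHPC replicate 3 alone, the single control beside the BM-MC samples. The causes of the changes below were not tested.

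Limma's 5 calls between both SHPC groups became 213 without scaling, 0 without a filter, 3 with a filter on every complete array, with a floor or with normexp and quantile normalization, 0 with the replicate block, 22 with all 8 samples, 33 with an intensity trend, and 3453 and 0 by the methods' t-test without and with adjustment. With a sample left out they ran from 0 (leaving out replicate 1 or 2 of either SHPC group) to 530 (without control SHPC replicate 3), with 20 without BM-MC SHPC replicate 3. The 262 calls between control SHPCs and MHs became 136 without a filter, 124 with normexp and quantile normalization, 159 with the replicate block, 559 with an intensity trend, and 4037 and 0 by the t-test. They ran from 55 (without MH replicate 1) to 523 (without BM-MC SHPC replicate 3), with 131, 102, 97 and 157 without MH replicate 2, the controls 1 and 2, and BM-MC SHPC replicate 2. The 78 calls between BM-MC SHPCs and MHs became 50 with median scaling, 7 with quantile normalization, 1 without a filter, 3 with normexp or with the array set as a block, 0 with the replicate block or with these groups alone, 130 with an intensity trend, and 2141 and 0 by the t-test. They ran from 0 (leaving out replicate 1 or 2 of the controls, or BM-MC SHPC replicate 2) to 115 (without BM-MC SHPC replicate 1), with 2 and 6 without MH replicate 1 or 2. The unadjusted t-test called 2 members in each of the first and second comparison.

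Deviations from the group means of same-numbered SHPC samples correlated at 0.13, 0.078 and 0.17 across probes, and those of unlike-numbered samples between -0.15 and 0.082. Each BM-MC SHPC replicate correlated best with the control of its own number, whereas control SHPC replicate 2 correlated best with BM-MC SHPC replicate 1. Whether the replicate numbers pair the samples was not tested. The replicate block turned Irak1 to -0.010, Nfkb1 to -0.051 and Tnfaip3 to -0.0052 between BM-MC SHPCs and MHs.

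Median scaling, which lowers every value of the SHPC comparison by the same amount, moved the median of the members to -0.15 there and to -0.17 between BM-MC SHPCs and MHs (-0.17 and -0.19 over all probes). Among both SHPC groups it put Irak1 at -0.13, Irak2 at -0.19, Tlr2 at -0.17, Nfkb1 at -0.18 and Tlr3 at -0.014, and against MHs Irak1 at -0.14, Myd88 at -0.093, Tlr4 at -0.15, Nfkb1 at -0.19, Nfkbia at -0.080 and Tnfaip3 at -0.0074. The percentile over probes above background everywhere put Rela at 0.030 between both SHPC groups. Quantile normalization put Irak2 at -0.013 and Nfkb1 at -0.048 there, Nfkb1 at 0.0041 between control SHPCs and MHs, and Tlr4 at -0.14, Nfkb1 at -0.043 and Tnfaip3 at -0.045 between BM-MC SHPCs and MHs. No scaling put Irak1 at -0.024, Tlr4 at -0.028 and Nfkb1 at -0.076 in the latter, and the mean of both probes put Irak1 at -0.039. Normexp and quantile normalization put Irak1 at -0.0038, Irak2 at -0.020, Nfkb1 at -0.11 and Tnfaip3 at -0.068 between both SHPC groups, Irak1 at 0.044, Nfkb1 at 0.024 and Tnfaip3 at 0.073 between control SHPCs and MHs, and Tlr4 at -0.069 and Nfkb1 at -0.083 between BM-MC SHPCs and MHs. The array set as a block put Irak1 at -0.054, Nfkb1 at -0.19 and Tnfaip3 at -0.24 between both SHPC groups, and Irak1 at -0.12, Myd88 at -0.0049, Tlr2 at 0.29, Nfkb1 at -0.30, Tnfaip3 at -0.54, Tnfaip8l2 at 0.29 and Cyld at 0.19 between BM-MC SHPCs and MHs, where it also moved Tlr4 from 0.052 to 1.04 and Nfkbia from 0.12 to 0.48. Between both SHPC groups that block also put Tlr2 at 0.55, Nfkbia at 0.48 and Irak2 at 0.16.

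With each sample left out, the values between both SHPC groups ran from -0.015 to 0.16 for Irak1, -0.073 to 0.086 for Irak2, -0.24 to 0.29 for Tlr2, -0.047 to 0.11 for Nfkb1, -0.19 to 0.061 for Rela and -0.019 to 0.49 for Tnfaip3. Between control SHPCs and MHs they ran from -0.078 to 0.071 for Irak1, -0.11 to 0.052 for Nfkb1 and -0.56 to 0.45 for Tnfaip3. Between BM-MC SHPCs and MHs they ran from -0.019 to 0.16 for Irak1, -0.29 to 0.40 for Tlr4, -0.031 to 0.041 for Nfkb1, -0.0069 to 0.24 for Nfkbia, -0.31 to 0.70 for Tnfaip3 and -0.21 to 0.028 for the median of the members, the lowest without MH replicate 1.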
